A study of Homo sapiens with 6 samples.

Results

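The 5 genes described here, ATAD3A, ATAD3B, ATAD3C, MRPL20 and AURKAIP1, are nuclear genes for proteins of the mitochondrial nucleoid and the mitochondrial ribosome near the end of the short arm of chromosome 1. They were chosen by name and mapped from symbol to Ensembl identifier. They are 5 of the 220 genes whose counts were read in all 6 libraries. RNA-Seq was performed on U2OS, a human osteosarcoma cell line labelled wild type, in 3 groups of 2 libraries. Control cells received no treatment, adriamycin cells received 1.5 μg/ml of the drug for 4 h, and etoposide cells received 100 μM for 4 h. Adriamycin (doxorubicin) and etoposide both poison topoisomerase II, and adriamycin also intercalates into DNA. Their doses differ, so a difference between the drugs is a difference between these treatments and not between matched doses. The study's legends call replicates technical, in places with the remark that the cells were cultured separately. Whether this holds for all 6 libraries used here was not settled. The p-values rest on the spread between these libraries, which may be technical and was largely pooled over the genes tested.

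The etoposide libraries held 21450766 and 14244235 counts over 67140 genes. In the other 4 libraries, between 220 and 292 genes at the start of the same list were read, and the rest was not analysed here. The 220 shared genes summed to between 59357 and 92794 counts per library, which is not a library depth, and the 5 genes together took 7.52% to 8.42% of these sums. AGRN, the gene of the basement membrane protein agrin, took 21.1% to 29.0% of them. The labels name bone as the tissue and epithelial as the cell type. In the etoposide libraries, all 6 bone and mesenchyme markers had counts, from 74285 and 51627 for COL1A1, with SPARC and VIM also high, through 215 and 131 for ALPL and 101 and 69 for RUNX2 down to 5 and 2 for COL1A2. The 5 epithelial markers ranged from 20129 and 12074 for KRT8 and 4945 and 3048 for KRT18 over 293 and 169 for EPCAM to 30 and 20 for CDH1 and 17 and 21 for KRT5. The blood marker PTPRC had 6 counts in each and the endothelial marker PECAM1 22 and 14.

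Mitochondria keep their own DNA, packed with proteins into nucleoids at the inner membrane, and translate its few messages on their own ribosomes, whose proteins are all encoded in the nucleus. ATAD3 proteins are AAA+ ATPases of the inner mitochondrial membrane that associate with nucleoids. ATAD3A is the widely expressed, essential form, ATAD3B is a primate paralog with a longer carboxyl end, and ATAD3C is a shorter paralog. Recombination among these copies is a known cause of inherited mitochondrial disease. MRPL20 encodes bL20m, a protein of the large mitoribosomal subunit. AURKAIP1 encodes mS38, a protein of the small subunit that also binds Aurora A kinase.

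In GRCh38 with the GENCODE annotation, the genes lie on chromosome 1 in 2 groups. AURKAIP1 (ENSG00000175756) spans bases 1373730 to 1375207 and MRPL20 (ENSG00000242485) bases 1401909 to 1407293, both on the minus strand, with CCNL2 between them. The ATAD3 genes follow on the plus strand as ATAD3C (ENSG00000215915, 1449689 to 1470163), ATAD3B (ENSG00000160072, 1471765 to 1497848) and ATAD3A (ENSG00000197785, 1512162 to 1534685). ATAD3C and ATAD3B are 1601 bases apart, and ATAD3B and ATAD3A 14313 bases. MRPL20-AS1 (ENSG00000224870, 1399515 to 1402046), an antisense RNA on the plus strand, overlaps 138 exon bases of MRPL20. MRPL20-DT (ENSG00000272455, 1409096 to 1410618), a divergent transcript, begins 1803 bases from the first base of MRPL20 on the opposite strand.

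The coding sequences of ATAD3A and ATAD3B are printed here because their likeness limits how reads can be assigned. Over 1758 aligned coding bases the pair were identical at 1683, or 95.7%, and the longest identical run was 336 bases. The first 120 coding bases, in the first coding exon of each gene, are shown from chr1:1512269-1512388 and chr1:1471885-1472004 of hg38, plus strand. Capitals mark the 2 bases at which they differ.
ATAD3A: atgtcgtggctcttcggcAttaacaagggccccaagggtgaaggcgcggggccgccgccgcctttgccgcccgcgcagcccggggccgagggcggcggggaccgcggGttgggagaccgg
ATAD3B: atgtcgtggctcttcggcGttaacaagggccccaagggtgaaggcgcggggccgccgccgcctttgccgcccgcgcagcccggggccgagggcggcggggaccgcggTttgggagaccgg
The end of the ATAD3A coding sequence and the bases aligned to it in ATAD3B differ more. They are shown from chr1:1533992-1534069 and chr1:1495551-1495628, plus strand, with capitals at the 10 of 78 bases that differ.
ATAD3A: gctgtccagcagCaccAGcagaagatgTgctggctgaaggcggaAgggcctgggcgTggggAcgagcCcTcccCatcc
ATAD3B: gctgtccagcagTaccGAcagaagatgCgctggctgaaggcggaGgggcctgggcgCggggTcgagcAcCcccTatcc
Of all stretches of 150 bases, the read length, in the ATAD3A transcript used, 255 of 2332 (10.9%) also occurred exactly in a transcript of another gene, and 211 of these in ATAD3B. The shares were 5.34% for ATAD3B and 3.15% for ATAD3C. For MRPL20 and AURKAIP1 they were 0 of 551 and 0 of 604. ATAD3A and ATAD3C were identical at 91.2% of 1200 aligned coding bases. The counting options for reads with several matches are not given in the sources used here, so the split between the ATAD3 genes is uncertain, and that between MRPL20 and its antisense RNA where they overlap.

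The promoters of MRPL20 and AURKAIP1 are shown because these genes had like values across the libraries. This likeness is not particular to the pair. FAAP20 and ACAP3, which are not members, were more like MRPL20 than AURKAIP1 was, and their promoters are not shown. They are from RefSeq on GRCh38.p14, minus strand, from 250 bases before the first base to 20 after it, with matches to the ETS motif CCGGAAG in capitals. AURKAIP1 is read from chr1:1375188-1375457 and MRPL20 from chr1:1407274-1407543.
AURKAIP1: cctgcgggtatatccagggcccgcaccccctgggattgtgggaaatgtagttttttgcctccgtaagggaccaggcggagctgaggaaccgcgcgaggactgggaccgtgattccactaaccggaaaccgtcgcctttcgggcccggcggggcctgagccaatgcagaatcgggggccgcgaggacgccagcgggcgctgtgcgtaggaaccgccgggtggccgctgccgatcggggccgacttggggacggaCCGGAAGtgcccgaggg
MRPL20: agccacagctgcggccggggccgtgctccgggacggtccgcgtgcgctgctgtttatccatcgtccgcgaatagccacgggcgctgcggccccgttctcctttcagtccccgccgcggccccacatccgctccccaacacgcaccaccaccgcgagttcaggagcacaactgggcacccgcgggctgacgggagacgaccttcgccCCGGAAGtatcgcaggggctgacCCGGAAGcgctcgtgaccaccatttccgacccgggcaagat
The ETS motif, searched on both strands in windows of 300 bases, was found 2 times in MRPL20, at bases -44 and -21 from the start, and 1 time in AURKAIP1, at +4. It occurs in 10.3% of the 35116 RefSeq promoters. It was not found in the windows of ATAD3A and ATAD3C, and ATAD3B had no entry. The NRF1 motif GCGCATG (4.43% of promoters) and the YY1 motif ATGGCGG (5.55%) were found in none of the 4 windows. CCAAT (34.6%) was found in AURKAIP1 alone, and the GC box GGGCGG (45%) 1 time in AURKAIP1 and 7 times in ATAD3A. No match overlapped one of another motif. Some GC box matches in ATAD3A overlap each other, at -44 and -39 and at -30, -26 and -22, so the 7 are not separate sites. A match is a run of letters and was not tested for binding.

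In the etoposide libraries, where the whole gene list was read, levels can be set beside each other per length in TPM, a share of all transcripts computed from the counts and the summed exon length. AURKAIP1 stood highest at 250.3 ± 19.8 TPM (SD, n = 2), above 99.16% of listed genes. MRPL20 at 96.5 ± 8.52 and ATAD3A at 88.3 ± 3.25 TPM were close. Within each library MRPL20 was the higher, at 102.5 and 90.5 TPM for MRPL20 and 90.6 and 86.0 for ATAD3A. ATAD3B followed at 35.1 ± 0.307 TPM. ATAD3C was listed at 0.0806 and 0.248 TPM from 2 and 4 counts. With the longest transcript as length, the levels were 243, 119, 85.1, 47.1 and 0.128 TPM in the same order.

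Set among the mitoribosome genes, AURKAIP1 ranked 2 of 30 small subunit genes by level per length, after MRPS34 at 338 TPM, with a list median of 83.0 TPM. The lowest of this list were MRPS22 at 10.2 and MRPS24 at 2.04 TPM. MRPL20 ranked 21 of 52 large subunit genes, whose median was 85.6 TPM. MRPL41 at 494 and MRPL51 at 358.5 TPM led that list, and MRPL46 at 8.38 and MRPL53, with 0 counts in both libraries, closed it. Whether the low values of MRPL53 and MRPS24 reflect the transcripts or the way reads were counted was not tested. Among 18 nucleoid genes, ATAD3A ranked 5 and ATAD3B 13, with a median of 52.6 TPM. The prohibitins PHB2 at 495 and PHB1 at 225.5 TPM, scaffold proteins of the inner membrane, stood highest, and PRIMPOL at 9.71 and ATAD3C lowest. Of these lists, only 1 large subunit gene, 1 small subunit gene and 3 nucleoid genes, the members themselves, lie among the genes of all 6 libraries, so a response of the mitoribosome or the nucleoid as a whole could not be followed. The 13 protein genes of mitochondrial DNA took 5.09% and 5.18% of the etoposide counts. By level per length, MT-CO1 and MT-CO3 stood highest among them and MT-ND6 and MT-ATP8 lowest.

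**Figure D1:**
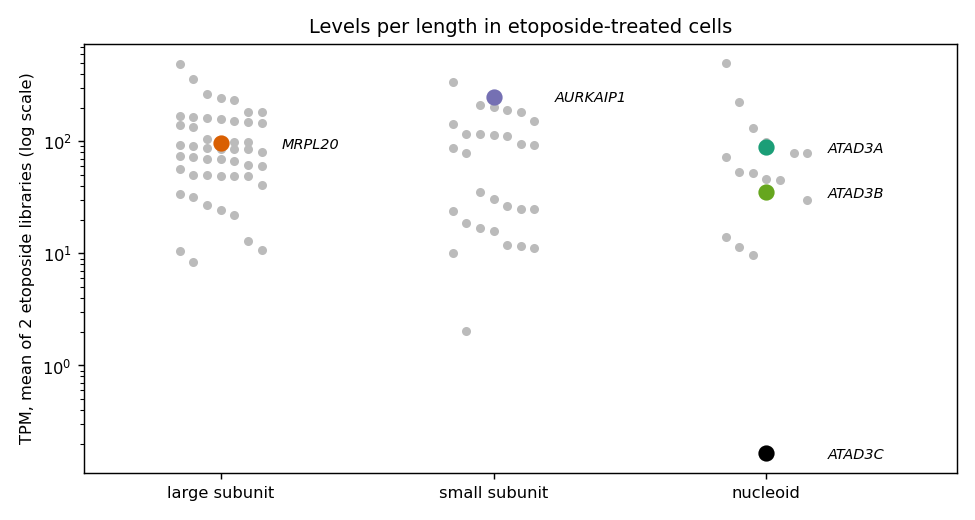
Levels per length in the 2 etoposide libraries, in TPM on a log axis, for genes of the large and small mitoribosomal subunits and the nucleoid. Points are genes, the named members are coloured, and MRPL53 at 0 is not drawn. AURKAIP1 stands near the top of its list at 250.3 TPM and ATAD3C at the bottom of its list.

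For the comparisons between groups, counts were normalized by TMM over the shared genes and tested in edgeR by quasi-likelihood, and p-values were adjusted over the 94 genes that passed the filter on low counts. A gene is said to have risen or fallen at an adjusted p under 0.01. The biological coefficient of variation between replicates was 7.51%. Each gene was tested with 123.5 degrees of freedom, most of them from a spread pooled over the tested genes. A gene's own 2 libraries per group therefore weigh little in its SE and p-value. ATAD3A, ATAD3B, MRPL20 and AURKAIP1 passed the filter and ATAD3C did not. The 3 comparisons share groups and are not independent of each other. In these cultures, fewer cells with a transcript and less RNA per cell cannot be told apart.

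ATAD3C had almost no reads, with 1 and 2 counts in control, 0 and 0 in adriamycin and 2 and 4 in etoposide cells. These values are too few for a comparison, and a count of 0 allows up to 3 counts. No fold change is given.

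ATAD3B fell with etoposide and was the member furthest from control there. Its normalized counts were 1712 and 1538 in the control libraries, 1815 and 1756 in the adriamycin libraries and 1130 and 1157 in the etoposide libraries. Both etoposide libraries lay below every other library, and both adriamycin libraries above both control libraries. Against control, the log2 fold change with etoposide was -0.51 (SE 0.091, 95% interval -0.69 to -0.33, adjusted p = 1.785e-06, edgeR), a fold of 0.703. The change with adriamycin was 0.13 (SE 0.091, interval -0.046 to 0.31, adjusted p = 0.223), which did not pass. Between the drugs, ATAD3B was 1.56-fold higher with adriamycin, at a log2 fold change of 0.64 (SE 0.092, interval 0.46 to 0.83, adjusted p = 1.519e-09).

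ATAD3A, the essential paralog, had normalized counts of 1447 and 1487 in the control libraries, 1866 and 1528 in the adriamycin libraries and 1278 and 1227 in the etoposide libraries. Here too the etoposide libraries were lowest and the adriamycin libraries highest, with the groups separate, but adriamycin replicate 2 was only just above the controls. The log2 fold change against control was -0.23 with etoposide (SE 0.093, interval -0.41 to -0.043, adjusted p = 0.048) and 0.21 with adriamycin (SE 0.093, interval 0.030 to 0.40, adjusted p = 0.0486). Neither passed 0.01 by edgeR. Adriamycin against etoposide gave a log2 difference of 0.44 (SE 0.093, interval 0.26 to 0.62, adjusted p = 2.085e-05), a fold of 1.36.

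The share of ATAD3A in the counts of the 3 ATAD3 genes does not depend on the scaling between libraries. It was 45.8% (95% Wilson interval 44.2 to 47.4) and 49.1% (47.2 to 51.0) in the control libraries, 50.7% (49.0 to 52.4) and 46.5% (44.5 to 48.6) in the adriamycin libraries and 53.0% (51.4 to 54.7) and 51.4% (49.3 to 53.4) in the etoposide libraries. The etoposide shares lay above all others, and the control and adriamycin shares overlapped. The mean share with etoposide exceeded control by 4.75 percentage points, with an exact permutation p of 0.333 (two-sided), the smallest that 2 libraries against 2 allow. The intervals cover counting error only. With the counts of the 3 genes summed before the fit, an alternative chosen after seeing the data that does not depend on how reads were split among them, the log2 fold change was -0.40 with etoposide (SE 0.089, adjusted p = 0.000152), 0.15 with adriamycin (SE 0.089, adjusted p = 0.146) and 0.55 for adriamycin against etoposide (SE 0.089, adjusted p = 1.28e-07), all by edgeR.

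Of the mitoribosome genes, MRPL20 had normalized counts of 1125 and 1205 in the control libraries, 1565 and 1391 in the adriamycin libraries and 1197 and 1068 in the etoposide libraries. The adriamycin libraries were highest, and the etoposide and control libraries overlapped. The log2 fold change with adriamycin against control was 0.35 (SE 0.094, interval 0.16 to 0.53, adjusted p = 0.00123, edgeR), a fold of 1.27. With etoposide it was -0.037 (SE 0.094, interval -0.22 to 0.15, adjusted p = 0.817), and between adriamycin and etoposide it was 0.38 (SE 0.094, interval 0.20 to 0.57, adjusted p = 0.00024).

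For AURKAIP1 the normalized counts were 1456 and 1421 in control, 2014 and 1634 in adriamycin and 1540 and 1392 in etoposide cells. Again only the adriamycin libraries stood apart, and they differed more from each other than the controls did. It rose 1.27-fold with adriamycin, at a log2 fold change of 0.34 (SE 0.093, interval 0.16 to 0.53, adjusted p = 0.0012, edgeR). With etoposide the change was 0.029 (SE 0.093, interval -0.15 to 0.21, adjusted p = 0.849), and between the drugs 0.32 (SE 0.093, interval 0.13 to 0.50, adjusted p = 0.00194).

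**Figure D2:**
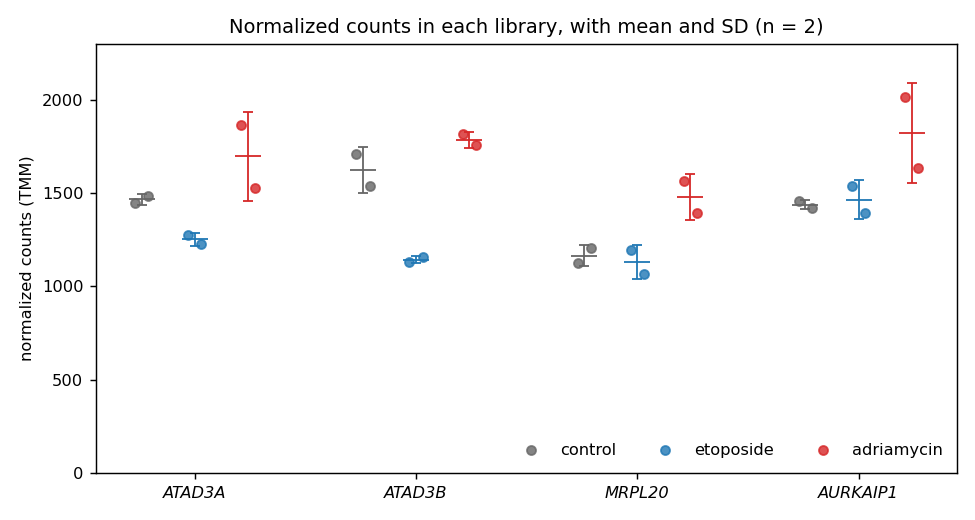
Normalized counts (TMM) of ATAD3A, ATAD3B, MRPL20 and AURKAIP1 on a linear axis from 0, by group. Points are libraries, dashes are means and bars are SD (n = 2). The etoposide libraries are lowest for ATAD3A and ATAD3B, and the adriamycin libraries are highest for all 4 genes.

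Within the mitoribosome pair, MRPL20 took 43.6% and 45.9% of the summed counts of the pair in the control libraries, 43.7% and 46.0% in the adriamycin libraries and 43.7% and 43.4% in the etoposide libraries, and the groups overlapped. ATAD3A and ATAD3B took 55.0% and 53.5% of the counts of the 4 tested genes in the control libraries, 50.7% and 52.0% in the adriamycin libraries and 46.8% and 49.2% in the etoposide libraries. The 3 groups did not overlap, and each pair of groups gave the exact permutation p of 0.333 that is the smallest possible.

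Counted over the members tested, 1 of 4 passed with etoposide against control, beside 22.3% of all 94 genes in either direction and 17.0% lower. With adriamycin against control 2 of 4 passed, beside 38.3% in either direction and 19.1% higher, and between the drugs 4 of 4 passed, all higher with adriamycin under TMM but with 0 of 4 past the threshold under the sum of the shared genes alone, beside 45.7% in either direction and 21.3% higher. At an adjusted p under 0.05, 2, 3 and 4 of the 4 passed in these comparisons, beside 33.0%, 47.9% and 48.9% of all genes. No member also passed the study's further threshold of a change over 1 on the log2 scale, which 5.32%, 8.51% and 12.8% of all genes did in these 3 comparisons. The groups did not overlap for 2, 4 and 4 of the 4 members, beside 70.2%, 75.5% and 77.7% of all genes. The median log2 fold change of the 4 members was -0.132, 0.279 and 0.412, beside 0.0269, -0.0716 and -0.0695 over all genes. Their median size of change was 0.132, 0.279 and 0.412, below the 0.32, 0.487 and 0.475 of all genes. The median SE of all genes was 0.178, 0.2 and 0.195, and that of the members lay between 0.091 and 0.094. The sizes of change and the shares of genes called are therefore not compared at a like precision.

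**Figure D3:**
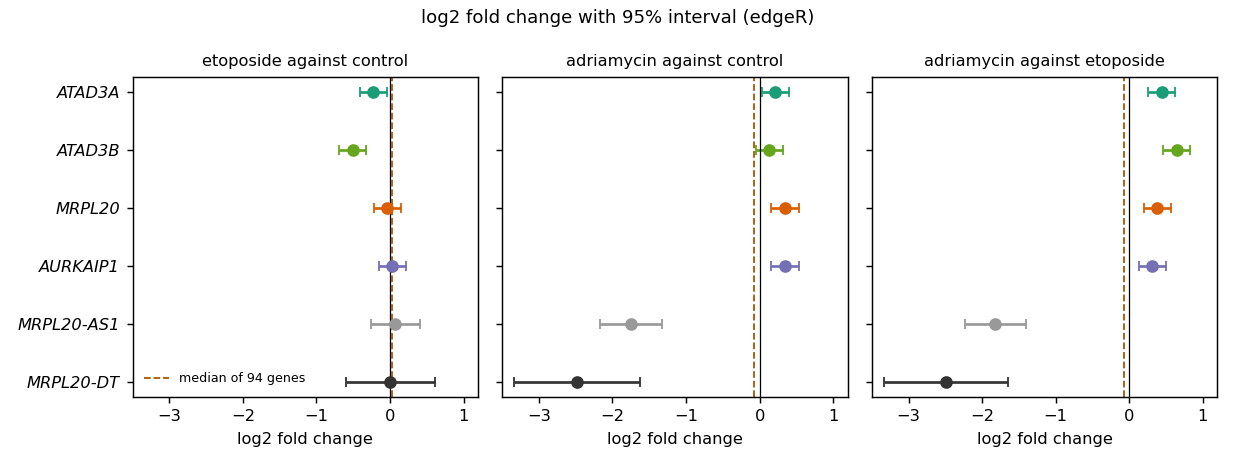
log2 fold changes with 95% intervals from edgeR for the 4 tested members and the MRPL20 neighbours MRPL20-AS1 and MRPL20-DT, 1 panel per comparison. The dashed line is the median of the 94 genes. The members lie between -0.51 and 0.64, and the neighbours reach -2.49.

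The choice of scaling moved these values together. From TMM to the sum of the shared genes alone, the median of all genes moved from -0.0695 to -0.481 for adriamycin against etoposide, and from -0.0716 to -0.289 for adriamycin against control. A change of scaling shifts all genes by nearly the same amount. The place of each member relative to the median gene was therefore nearly fixed in advance under the 5 scalings. It describes the member and is no test of the calls. ATAD3B lay 0.713 to 0.72 above the median gene for adriamycin against etoposide and 0.534 to 0.539 below it for etoposide against control. MRPL20 lay 0.418 to 0.422 and AURKAIP1 0.416 to 0.419 above it for adriamycin against control. For adriamycin against control, 69 of 94 genes had a lower fold change than MRPL20, 68 than AURKAIP1, 62 than ATAD3A and 59 than ATAD3B. For etoposide against control, 18 of 94 genes lay below ATAD3B.

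The calls themselves moved with scaling and with single libraries. The call of ATAD3B with etoposide was lost under upper-quartile scaling (log2 fold change -0.29) and without control replicate 1 or etoposide replicate 1, with -0.59 to -0.43 over the 6 single-library omissions. The calls of MRPL20 and AURKAIP1 with adriamycin against control were both lost without control replicate 1, control replicate 2, adriamycin replicate 1, etoposide replicate 1 or etoposide replicate 2, with log2 fold changes of 0.32 to 0.45 and 0.25 to 0.50. For adriamycin against etoposide, no member passed without etoposide replicate 1 and only 1 without adriamycin replicate 1 or etoposide replicate 2, with ATAD3B at 0.65 to 0.70 over the omissions. With the sum of the shared genes alone ATAD3B was at 0.23 and did not pass, and with AGRN left out of that sum it was at 0.36. ATAD3A ranged from 0.027 to 0.51 over the other scalings for adriamycin against etoposide, and its call held in 10 of 15 alternatives. For etoposide against control, where it did not pass, it ranged from -0.21 to -0.0036. Under the same sum, MRPL20 and AURKAIP1 were both at 0.13 for adriamycin against control and neither passed, and for adriamycin against etoposide they turned to -0.030 and -0.098. ATAD3A and ATAD3B, which had not passed for adriamycin against control, turned there to -0.0041 and -0.082.

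**Figure D4:**
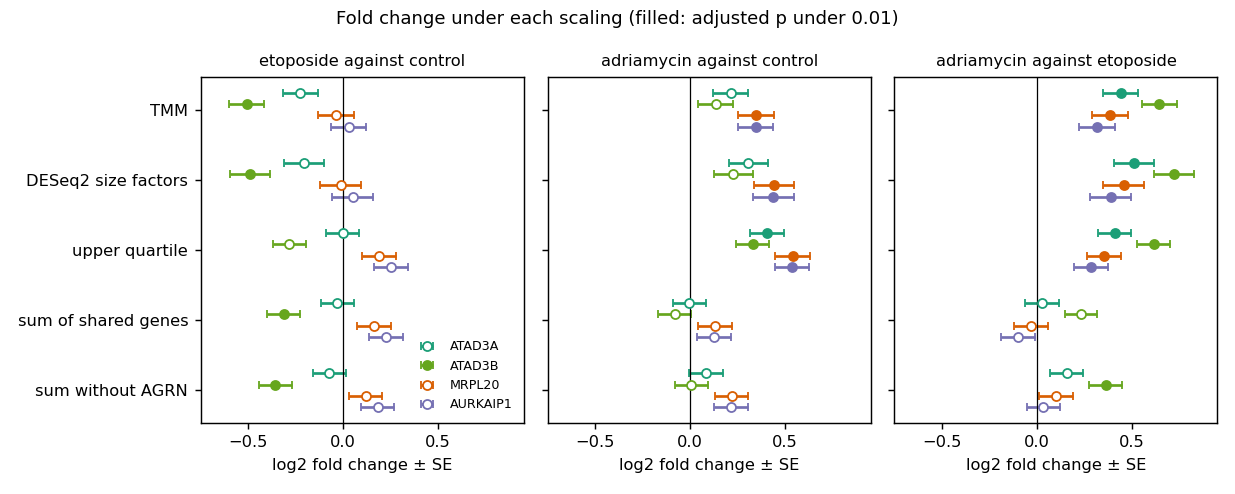
log2 fold changes of the 4 tested members with SE under 5 ways of scaling the libraries, 1 panel per comparison, filled where the adjusted p is under 0.01. The 4 genes shift together between scalings and keep their order, which a change of scaling nearly fixes in advance. Under the sum of the shared genes none passes for adriamycin.

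Around MRPL20, the noncoding neighbours moved the other way from the gene with adriamycin. Such a fall was not particular to them. Other tested long noncoding RNAs far from MRPL20 also fell with adriamycin against control at an adjusted p under 0.01, while several did not pass. MRPL20-AS1 was at 203 and 184 normalized counts in control cells, 62.7 and 51.7 in the adriamycin libraries and 217 and 188 in the etoposide libraries. The adriamycin libraries were far below the others, which overlapped. Its log2 fold change with adriamycin was -1.75 against control (SE 0.21, interval -2.16 to -1.33, adjusted p = 3.434e-12) and -1.82 against etoposide (SE 0.21, adjusted p = 2.844e-13), by edgeR. With etoposide against control it was 0.071 (SE 0.17, adjusted p = 0.80).

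MRPL20-DT was at 53.5 and 79.2 normalized counts in control cells, 11.9 and 11.2 in the adriamycin libraries and 79.9 and 48.4 in the etoposide libraries, from raw counts of 8 to 118. It fell with adriamycin by 2.48 on the log2 scale (SE 0.43, interval -3.34 to -1.63, adjusted p = 5.335e-07, edgeR), and the etoposide and control libraries overlapped. The fall of MRPL20-AS1 against control passed in 16 of 16 alternatives and that of MRPL20-DT in 15 of 15. RN7SL657P, which lies within MRPL20, had 0 counts in all 6 libraries.

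MRPL20-AS1 took 15.3% (95% Wilson interval 13.6 to 17.1) and 13.2% (11.4 to 15.2) of its summed counts with MRPL20 in the control libraries. With adriamycin the share was 3.85% (2.99 to 4.95) and 3.58% (2.61 to 4.9), and with etoposide 15.4% and 15.0%. MRPL20-DT took 4.54% and 6.17% of its sum with MRPL20 in the control libraries, 0.754% and 0.797% with adriamycin and 6.26% and 4.34% with etoposide. Both shares were lower in each adriamycin library than in every other library. The library kit as described does not mark strand, so reads from the 138 shared bases cannot be assigned to MRPL20 or its antisense RNA.

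The protein-coding genes next to the members did not all move as they did. CCNL2, a cyclin gene of RNA splicing between the pair, was higher than control with etoposide (log2 fold change 0.45, adjusted p = 1.414e-05) and with adriamycin (0.64, adjusted p = 8.857e-10), by edgeR. The first base of CCNL2 lies 180 bases from that of MRPL20-AS1 on the other strand, a distance looked up after the values were seen. MXRA8, on the other side of AURKAIP1, was at 0.27 (SE 0.179, adjusted p = 0.216) and 0.11 (SE 0.189, adjusted p = 0.669), and neither passed.

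**Figure D5:**
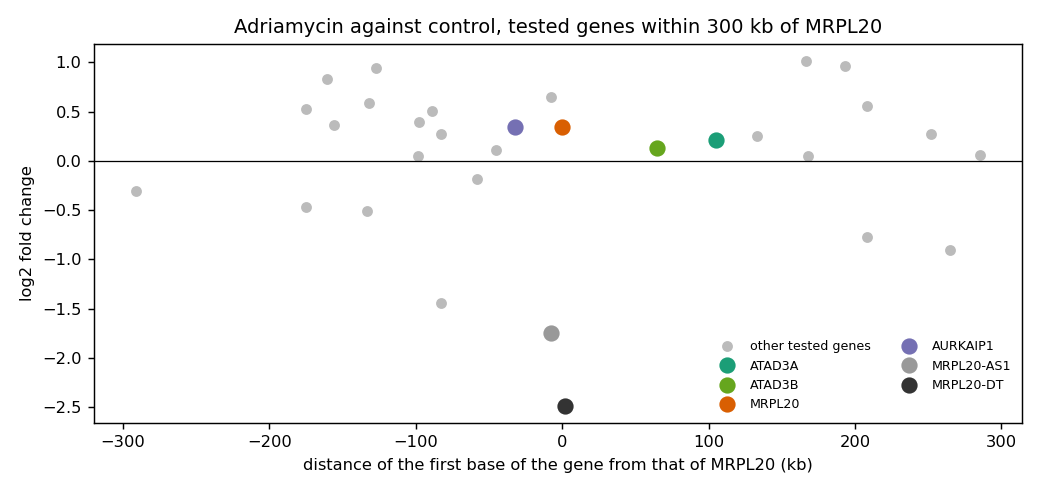
log2 fold change with adriamycin against control of the tested genes within 300 kb of MRPL20, by the distance of their first base from that of MRPL20 in kb. The members are coloured and lie between 0.13 and 0.35, while MRPL20-AS1 and MRPL20-DT lie at -1.75 and -2.48.

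Likeness over the 6 libraries was measured by the root mean square difference of log2 normalized counts, each gene centred on its own mean. Among the members tested, MRPL20 and AURKAIP1 differed least, by 0.0639. ATAD3A lay nearer to MRPL20 (0.0927) and AURKAIP1 (0.109) than to ATAD3B (0.15), and ATAD3B lay furthest from MRPL20 (0.213) and AURKAIP1 (0.239). Among the 90 tested genes that are not members, those nearest to MRPL20 were FAAP20 (0.0494), ACAP3 (0.0577) and SDF4 (0.0869), with a median distance of 0.435. Those nearest to AURKAIP1 were ACAP3 (0.0891), CDK11B (0.0926) and FAAP20 (0.0943). For ATAD3A they were INTS11 (0.0873), NOC2L (0.0976) and ACAP3 (0.0983), and for ATAD3B KLHL17 (0.128), SSU72 (0.139) and INTS11 (0.141).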

How the data were processed

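RNA-Seq counts of 6 U2OS libraries were used. Per the labels, the authors purified poly-A RNA, and their processing notes name HISAT2 2.1.0, featureCounts of Subread 2.0.0, DESeq2 1.30.1 and GRCh38. The authors deposited raw counts per Ensembl gene, whole numbers with no normalization. Strand and multi-mapping options are not given in the sources used here. Groups were taken from the labels. The members and lists were chosen with earlier results of these data known.

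Counts over the 220 genes of all 6 libraries were tested in one fit in R 4.3.3 with the quasi-likelihood test of edgeR 4.0.16, using TMM factors, the default low-count filter, group as the only term and Benjamini-Hochberg adjustment over 94 genes. The procedure was tested on simulated data. DESeq2 1.42.0 was an alternative. The further alternatives were other scalings, filters and thresholds, fits of the 4 libraries compared, a replicate block and leaving out each library. To normalize, each count was divided by its library's TMM-adjusted sum, itself scaled to a geometric mean of 1 over the libraries. TPM used the summed exon length in the GENCODE annotation, which gave symbols for 60357 identifiers. Tables were made with Python 3.11.15, pandas 2.3.3 and scipy 1.17.1. The named genes are the members, genes overlapping a member or beginning within 2000 bases of one, the nearest tested coding neighbours (1 is not reported here), the 3 genes most like each member, and the 2 highest and lowest of each list.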

Additional observations from a re-analysis of the deposited data

How the results depend on the processing

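The number of members past the threshold was 1 of 4 for etoposide against control, 2 for adriamycin against control and 4 for adriamycin against etoposide. With upper-quartile scaling it became 0 and 4 in the first and second comparison. With the sum of the shared genes alone it became 0 for both adriamycin comparisons, and without AGRN in that sum, an alternative added after seeing the data, 0 and 1. A fit of only the 4 libraries compared left 0 for adriamycin against control. An adjusted p under 0.05 gave 2 for etoposide against control, and the further threshold of a change over 1 on the log2 scale gave 0 in each comparison. Leaving out 1 library at a time gave 0 to 1, 0 to 3 and 0 to 4, with 0 for adriamycin against etoposide without etoposide replicate 1 and 1 without adriamycin replicate 1 or etoposide replicate 2. A group left with 1 library was assumed to vary like the others. The filter was run anew in these omissions and kept 99 to 104 genes. Their calls over all genes are therefore not set against the 21, 36 and 43 of 94 genes in the main fit. The higher and lower calls moved from 20 and 23 to 4 and 33 for adriamycin against etoposide with the sum alone, from 18 and 18 to 3 and 27 for adriamycin against control, and from 5 and 16 to 17 and 11 for etoposide against control. Of the values past the threshold, those that changed sign were MRPL20 at -0.030 and AURKAIP1 at -0.098 for adriamycin against etoposide under the sum alone. Of those not past it, ATAD3A and ATAD3B changed sign for adriamycin against control in 1 alternative each, and MRPL20 and AURKAIP1 for etoposide against control in 5 and 3 of 16. The cause was not tested. The DESeq2 Wald test gave 1, 2 and 4.

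A replicate block in the design left the numbers of members at 1, 2 and 4. Libraries that share a number deviated from their group means with correlations of -0.0704, 0.0365 and -0.0104 over 75 genes. These values cannot show whether such libraries were cultured or prepared together, since pairing without a common shift over genes could give them too.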
